A study of Mus musculus with 16 samples.

Results

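The 8 genes Srebf2, Insig1, Hmgcs1, Idi1, Fdps, Sqle, Lss and Cyp51, enzymes and sterol-controlled regulators of cholesterol synthesis, were followed in the quadriceps RNA of 16 mice. They were chosen by name from the pathway, and all 8 matched a row among the 18872 rows of the deposited table and passed the filter of a mean of at least 1 FPKM (a level per transcript length and per library size) that left 10519 genes for testing. There were 4 mice in each of 4 groups: exercised VV, sedentary VV, exercised MM and sedentary MM (WT). In VV mice the Camk2g gene carries a knock-in in every cell that puts valines in place of a pair of methionines of the kinase CaMKIIγ that can be oxidized, and MM mice are their wild-type littermates. All mice were C57BL/6 males of 13 to 15 weeks whose food was withdrawn on the morning of collection. The exercise was a single run of 350 m on a treadmill set at an incline, with tissue collected 3 h later, and mice that did not finish were left out by the study. Each value is 1 mouse, and the comparison of interest is whether the answer of muscle to a run differs when CaMKIIγ cannot be oxidized at this pair.

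Cells make cholesterol from acetyl-CoA through mevalonate, isoprenoid diphosphates, squalene and lanosterol. The transcription factor SREBP2, the product of Srebf2, is held in the membrane of the endoplasmic reticulum with its escort SCAP. When sterols are plentiful the INSIG proteins keep this complex in place, and when sterols fall SREBP2 is cut, enters the nucleus and raises the genes of the pathway, Insig1 and its own gene included. Liver is the tissue best known for this control, and muscle holds the same enzymes.

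The promoters of the genes are shown where they hold a sequence like the sterol regulatory element, the site bound by SREBP proteins. RefSeq promoters of GRCm38.p6, from 250 bases before to 50 bases after the start, were at hand for 6 genes (Srebf2, Insig1, Hmgcs1, Idi1, Lss and Cyp51). On both strands, TCACNCCAC was found in the promoter of Hmgcs1 alone among the 6 and in 1.24% of all 32851 promoters, and the looser TCACNCNAC at the same place and in 2.70% of all. CCAAT, the box of the factor NF-Y, was in 6 of 6 promoters and in 37.4% of all. The shorter TCACCNCA, which overlaps the Hmgcs1 match and was chosen after the promoters had been read, was in 3 of the 6 and in 4.42% of all promoters. A match is a description of letters and not a bound site. The 3 stretches below are 80 bases each, on the strand of the gene, with the match to TCACCNCA in capitals. They come from chr5:4104742-4104821 (minus strand, first base of the match at -88 from the start) for Cyp51, chr13:119690178-119690257 (plus strand, -137) for Hmgcs1 and chr15:82147071-82147150 (plus strand, -162) for Srebf2.
Cyp51: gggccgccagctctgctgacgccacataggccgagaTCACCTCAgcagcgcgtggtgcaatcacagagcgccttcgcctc
Hmgcs1: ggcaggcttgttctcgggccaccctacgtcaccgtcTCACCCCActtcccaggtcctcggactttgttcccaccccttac
Srebf2: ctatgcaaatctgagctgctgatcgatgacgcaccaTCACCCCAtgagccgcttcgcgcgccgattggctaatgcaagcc

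Summed FPKM per mouse ranged between 470634 and 513468, relative depth ranged from 1 to 1.23 times that of the shallowest mouse, and the 10 highest genes held 28.9 to 33.4% of the sum. The summed level of 8 skeletal muscle markers was between 80500 and 106800 FPKM, and that of 8 adipocyte markers between 530 and 1382 FPKM. It was 549 to 1007 FPKM for 4 brown adipocyte markers, 56.1 to 82.98 FPKM for 9 Schwann cell markers, 85.0 to 106 FPKM for 6 endothelial markers and 276 to 610 FPKM for 6 fibroblast markers. Most of the brown adipocyte sum was Cox8b, which muscle also expresses, and the exercise values of these markers are given below with the lipogenic genes. For exercise averaged over genotypes 1 of 6 endothelial genes passed as higher and 1 as lower, where 3.14% of all tested genes passed. No other gene of these marker lists passed in any comparison. The summed fibroblast markers had medians of 370 FPKM in exercised VV, 397 FPKM in sedentary VV, 543 FPKM in exercised MM and 345 FPKM in sedentary MM mice. With exercise in MM 6 of 6 of them were above 0 (37.5% of all tested genes), with a median log2 fold change of 0.39. At an unadjusted p under 0.05 by limma were 2 of them (10.7% of all tested genes). In VV 4 of 6 were above 0 (26.3% of all tested genes), with a median of 0.01. Their part in the values below was not tested. The exercise-responsive genes Ppargc1a, Nr4a3 and Atf3 passed the test after the run in both genotypes. In whole muscle, fewer cells of a type and less RNA per cell cannot be told apart.

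Across all 16 mice Fdps and Hmgcs1, enzymes before squalene, were the highest of the 8 genes, and Cyp51 and Lss, enzymes after it, the lowest. Fdps averaged 18.3 ± 1.37 FPKM, Hmgcs1 13.0 ± 1.69 FPKM, Insig1 8.07 ± 2.03 FPKM and Idi1 3.92 ± 0.745 FPKM (SD, n = 16). Srebf2 averaged 1.77 ± 0.403 FPKM, Sqle 1.72 ± 0.312 FPKM, Cyp51 1.13 ± 0.222 FPKM and Lss 1.01 ± 0.195 FPKM. In this order the ranges over all mice were apart only between Idi1 and Srebf2, and those of every other neighbouring pair overlapped. Within single mice Insig1 exceeded Idi1 in 16 of 16, while Srebf2 exceeded Sqle in 9 of 16. Lss and Cyp51 lay just above the filter, in the lowest 0.1% and 2.2% of tested genes by mean FPKM.

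**Figure D1:**
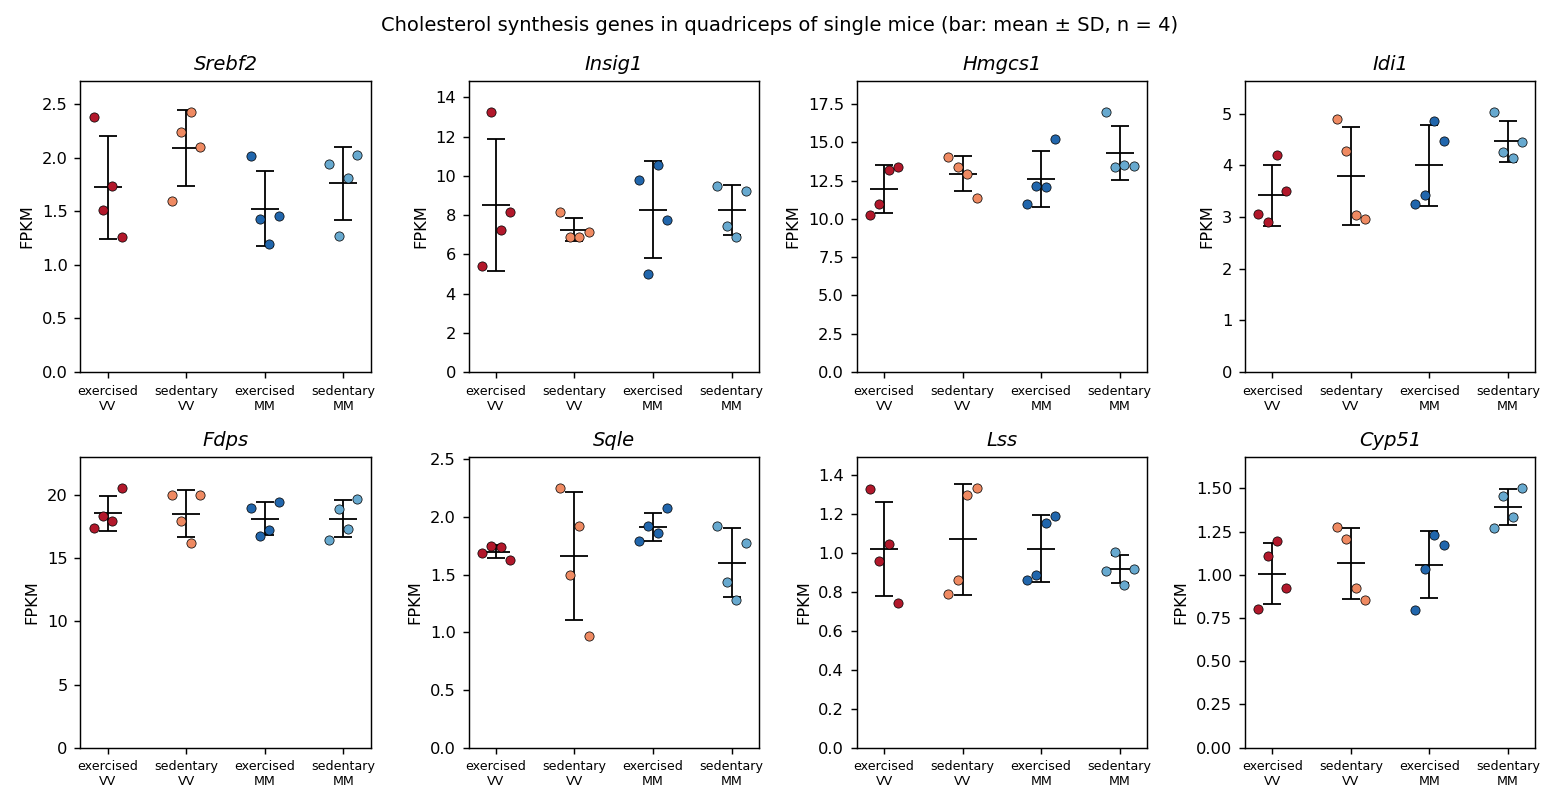
Level of each gene in FPKM (vertical axes, from 0) in the 4 mice of exercised VV, sedentary VV, exercised MM and sedentary MM, with points for single mice and bars for the mean ± SD. The groups overlap in nearly every panel. For Cyp51 the 4 exercised MM mice and the 4 exercised VV mice lie below the 4 sedentary MM mice (highest 1.23 and 1.19 against lowest 1.27 FPKM). Exercised and sedentary MM mice were separated in 6.74% of all tested genes. For Sqle the 4 exercised VV mice lie below the 4 exercised MM mice (highest 1.75 against lowest 1.79 FPKM), a separation found in 3.39% of all tested genes.

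No difference between groups was shown for the regulators Srebf2 and Insig1. Srebf2, which encodes the transcription factor itself, lies on chromosome 15 of GRCm38 from 82147269 to 82205379, with the microRNA gene Mir33 inside it. It had 2.38, 1.51, 1.74 and 1.26 FPKM in exercised VV mice, against 1.60, 2.24, 2.42 and 2.10 FPKM in sedentary VV mice. In exercised MM mice it was at 2.02, 1.43, 1.20 and 1.45 FPKM, against 1.94, 1.27, 1.81 and 2.03 FPKM in sedentary MM mice. The exercised and sedentary ranges overlapped in both genotypes. On the log2(FPKM + 0.1) scale the fold change of exercise was -0.28 in VV and -0.20 in MM (standard error 0.21 for each, adjusted p = 0.657 and 0.786 from limma). VV exceeded MM by 0.24 in sedentary and by 0.15 in exercised mice, with intervals that held 0.

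Insig1, on chromosome 5 from 28071412 to 28078662, encodes the sterol-responsive anchor of the SCAP complex and is one of the most direct readouts of SREBP2. Exercised VV mice had 5.39, 13.2, 7.24 and 8.14 FPKM, against 8.14, 6.87, 6.86 and 7.15 FPKM in sedentary VV mice. Exercised MM mice had 9.78, 5.02, 10.5 and 7.74 FPKM, against 9.46, 7.46, 6.87 and 9.21 FPKM in sedentary MM mice. The exercised groups spread on both sides of the sedentary ones in either genotype. Its log2 fold change with exercise was 0.15 in VV and -0.04 in MM (standard error 0.24 for each). Its residual standard deviation between mice of 1 group, 0.38 log2 units, was larger than that of 89.6% of tested genes, against a median of 0.19.

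Among the early enzymes, Hmgcs1 encodes the cytosolic HMG-CoA synthase and lies on chromosome 13 from 119690351 to 119708260. It had 10.3, 11.0, 13.2 and 13.4 FPKM in exercised VV mice, against 14.1, 13.4, 13.0 and 11.4 FPKM in sedentary VV mice. In exercised MM mice the values were 11.0, 12.1, 12.1 and 15.2 FPKM, against 17.0, 13.4, 13.5 and 13.4 FPKM in sedentary MM mice. Of the exercised mice, 2 of 4 VV and 3 of 4 MM mice lay below all sedentary mice of their genotype. The log2 fold change was -0.12 in VV (adjusted p = 0.752) and -0.19 in MM (adjusted p = 0.618; standard error 0.12 for each, limma). Averaged over genotypes it was -0.15 with a 95% interval of -0.33 to 0.03 (adjusted p = 0.341, the smallest of the 8 genes in that comparison).

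Idi1, which encodes the isomerase that makes dimethylallyl diphosphate, lies on chromosome 13 from 8885606 to 8892396. Exercised VV mice had 3.06, 2.90, 4.21 and 3.51 FPKM, against 4.89, 4.28, 3.05 and 2.97 FPKM in sedentary VV mice. Exercised MM mice had 3.26, 3.42, 4.86 and 4.47 FPKM, against 5.03, 4.25, 4.14 and 4.46 FPKM in sedentary MM mice. The sedentary VV mice fell into a high and a low pair, and every group overlapped the others. With exercise the log2 fold change was -0.13 in VV and -0.17 in MM (standard error 0.17 for each). VV was below MM by -0.24 averaged over exercise, with an interval of -0.50 to 0.02 (unadjusted p = 0.0699, adjusted p = 0.382 from limma).

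Fdps, the farnesyl diphosphate synthase gene at the branch to sterols and prenylated proteins, lies on chromosome 3 from 89093588 to 89101967. It had 17.4, 18.4, 17.9 and 20.6 FPKM in exercised VV mice, against 20.01, 17.96, 16.2 and 20.02 FPKM in sedentary VV mice. The values were 19.0, 16.8, 17.3 and 19.5 FPKM in exercised MM mice, against 16.5, 18.9, 17.4 and 19.7 FPKM in sedentary MM mice. These groups overlapped throughout. The log2 fold change was 0.00 in VV and 0.00 in MM, and the interval in MM, -0.19 to 0.19, was the narrowest of the 8 genes together with that in VV. Its residual standard deviation of 0.12 log2 units was above that of only 14.6% of tested genes.

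Sqle encodes squalene epoxidase, a rate-controlling step of the sterol branch, and lies on chromosome 15 from 59315092 to 59331193. Exercised VV mice had 1.69, 1.75, 1.74 and 1.62 FPKM, against 2.25, 1.497, 1.92 and 0.965 FPKM in sedentary VV mice. In exercised MM mice it was at 1.79, 1.92, 1.86 and 2.07 FPKM, against 1.92, 1.43, 1.28 and 1.78 FPKM in sedentary MM mice. All 4 exercised VV mice were below all 4 exercised MM mice, a separation found in 3.39% of tested genes in this comparison, while the sedentary VV mice spanned the widest range. The log2 difference of VV from MM in exercised mice was -0.16 (standard error 0.20, adjusted p = 0.767 from limma). With exercise it changed by 0.09 in VV and 0.25 in MM, with intervals of -0.33 to 0.51 and -0.17 to 0.67. After median-ratio scaling the separation was gone. Values were then 1.61 to 1.88 FPKM in exercised VV against 1.82 to 1.97 FPKM in exercised MM mice. Exercised MM mice then lay above sedentary MM mice (1.29 to 1.77 FPKM), and no share of all tested genes was taken on the scaled values. On the unscaled values, where Sqle overlapped, 6.74% of tested genes were separated for exercise in MM.

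Lss, which encodes lanosterol synthase, lies on chromosome 10 from 76531565 to 76557139 and was the lowest of the 8 genes. Its values were 1.33, 0.956, 1.05 and 0.743 FPKM in exercised VV mice, against 0.790, 0.861, 1.30 and 1.33 FPKM in sedentary VV mice. They were 0.860, 0.885, 1.15 and 1.19 FPKM in exercised MM mice, against 0.907, 1.01, 0.836 and 0.918 FPKM in sedentary MM mice. Sedentary MM mice lay close together, within the range of both VV groups. The log2 fold change of exercise was -0.06 in VV and 0.13 in MM (standard error 0.21 for each). An antisense gene, 4930483K19Rik, overlaps Lss in the annotation, and none of the sources used here says whether the authors' quantification used strand.

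Cyp51, the lanosterol 14-alpha-demethylase gene, lies on chromosome 5 from 4080674 to 4104697, where it overlaps Akap9 on the opposite strand. It had 0.800, 1.11, 1.19 and 0.924 FPKM in exercised VV mice, against 1.28, 1.21, 0.924 and 0.856 FPKM in sedentary VV mice. Exercised MM mice had 0.799, 1.04, 1.23 and 1.17 FPKM, against 1.27, 1.46, 1.34 and 1.502 FPKM in sedentary MM mice. Sedentary MM mice were thus above all exercised MM mice, a separation found in 6.74% of tested genes for exercise in MM. They were also above all exercised VV mice, and only 1 sedentary VV mouse reached into their range. For sedentary MM against exercised VV mice no share over all tested genes was taken. The log2 fold change with exercise in MM was -0.38 (standard error 0.18, 95% interval -0.76 to 0.00, unadjusted p = 0.0524, adjusted p = 0.471 from limma), the largest of the 8 genes in size. In VV it was -0.07 (interval -0.45 to 0.31). The difference of these fold changes was 0.31 with an interval of -0.23 to 0.85 (adjusted p = 0.9997), and that of VV from MM in sedentary mice was -0.37 (interval -0.75 to 0.01, adjusted p = 0.835). After median-ratio scaling exercised MM mice reached 1.20 FPKM and exercised VV mice 1.295 FPKM. Both then overlapped sedentary MM mice, whose lowest value was 1.18 FPKM.

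None of the 8 genes passed the test after exercise in either genotype. Of all tested genes 0.276% passed in VV (29 genes) and 1.23% in MM (129 genes), by limma at an adjusted p under 0.05. At an unadjusted p under 0.05, 0 of the 8 genes passed in VV and 0 in MM, while 10.1% and 10.7% of all tested genes did. In VV 3 of the 8 genes were above 0 and 5 below (26.3% and 73.6% of all tested genes), with a median log2 fold change of -0.07 beside -0.08 over all tested genes. In MM the numbers were also 3 and 5 (37.5% and 62.5%), with a median of -0.10 beside -0.05. The groups did not overlap for 0 of 8 genes in VV and for 1 of 8 in MM, Cyp51, where 4.91% and 6.74% of all tested genes showed such a separation. Averaged over genotypes, 0 of 8 genes passed, against 3.14% of all tested genes, and the median was -0.07 beside -0.06.

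The effect of exercise was not shown to differ between VV and MM for any of the 8 genes. By limma 0% of all tested genes passed for the difference (195 at an unadjusted p under 0.05, 0 of the 8 genes among them), and the estimates of the 8 genes lay between -0.19 for Lss and 0.31 for Cyp51. The 95% intervals reached at most -0.80 and 0.91 log2 units, so differences of 1 log2 unit lay outside all 8 of them, while differences of 0.5 log2 units lay outside only 2. Each exercise effect and the difference rest on the same mice, as do the averaged comparisons, and their values are not independent of each other.

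Between genotypes 0 of the 8 genes passed in exercised mice and 0 in sedentary mice. Over all tested genes 0% passed in exercised mice (745 genes at an unadjusted p under 0.05) and 0.00951% in sedentary mice (1 gene, and 470 unadjusted). Groups were separated for 1 of 8 genes in exercised mice, Sqle, against 3.39% of all genes, and for 0 of 8 in sedentary mice, against 1.9%. The medians of the 8 genes were -0.04 in exercised and -0.07 in sedentary mice, beside -0.08 and -0.03 over all tested genes. Averaged over exercise, 0 of 8 passed, with 0.00951% of all tested genes doing so, and the estimates ran from -0.24 for Idi1 to 0.20 for Srebf2.

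In each of the 7 comparisons the 95% intervals of all 8 genes held 0 and lay within 1 log2 unit of it on either side. Within 0.5 log2 units lay the intervals of 5 genes for exercise in VV, 2 for exercise in MM, 4 for VV against MM in exercised mice and 3 in sedentary mice. For the 2 comparisons averaged over 8 mice a side this held for 7 genes each.

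**Figure D2:**
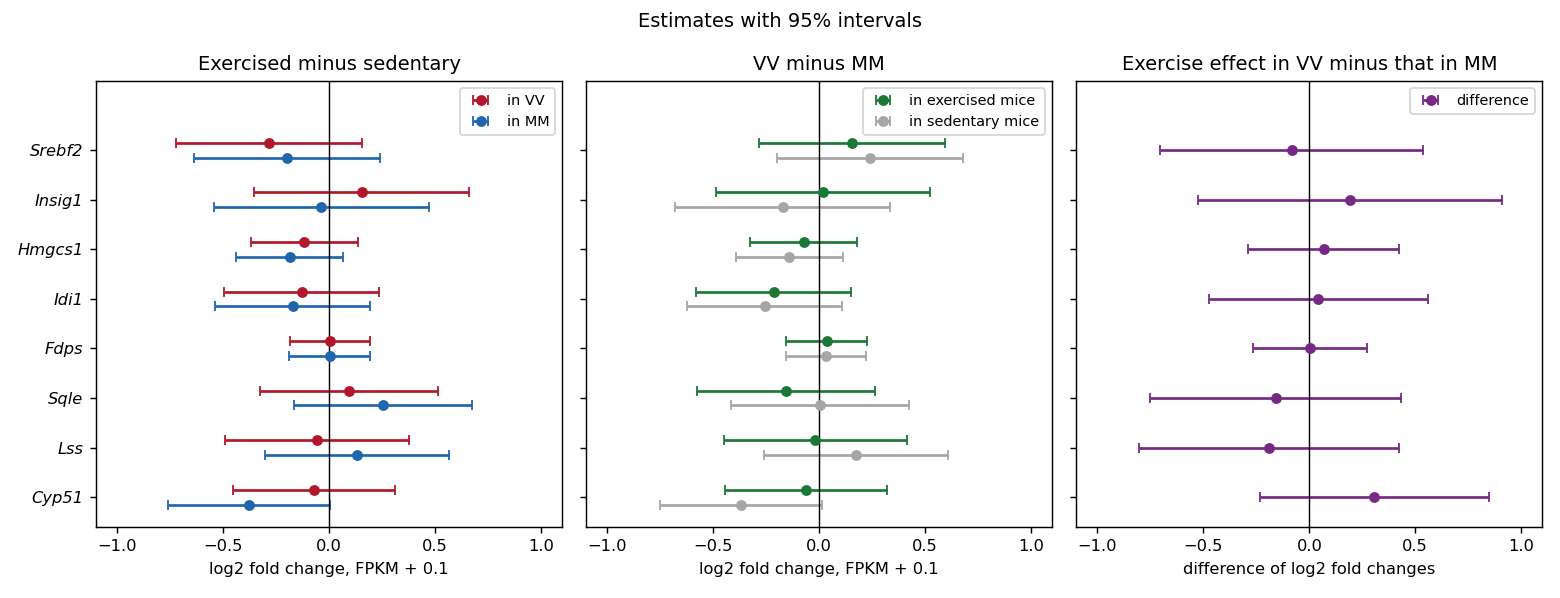
Log2 fold changes of the 8 genes on the log2(FPKM + 0.1) scale (horizontal axes) with 95% intervals from limma, for exercise in VV and in MM (left), for VV against MM in exercised and in sedentary mice (middle) and for the difference of the exercise effects (right). Every interval crosses 0, and the estimates farthest from it are those of Cyp51 for exercise in MM (-0.38) and for VV against MM in sedentary mice (-0.37).

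Within groups, the correlations among the 8 genes as a whole lay near those among all tested genes. After the group mean was taken off each log2 value, 15 of their 28 pairs (53.6%) had a Pearson's r above 0 with a median of 0.05, where 57.4% of all pairs of tested genes were above 0 with a median of 0.08. The 5th and 95th percentiles over all pairs were -0.604 and 0.691, and of the 28 pairs only Idi1 with Cyp51 and Hmgcs1 with Idi1 lay outside them, both just above. Idi1 and Cyp51 had Pearson's r = 0.741 (Spearman's rho = 0.794) over the 16 mice, and r = 0.645 without the 2 mice farthest from the median in Idi1. Hmgcs1 and Idi1 had r = 0.693, and Hmgcs1 had 0.515 with Sqle and 0.454 with Cyp51. Idi1 and Sqle had r = 0.476. Sqle and Cyp51 had 0.392, which was -0.01 without the 2 mice farthest from the median in Sqle. With Srebf2, r ran from -0.569 for Cyp51 to 0.323 for Lss and was -0.034 for Sqle. The values of a pair share the library and the FPKM scaling of each mouse, and these correlations are a description.

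**Figure D3:**
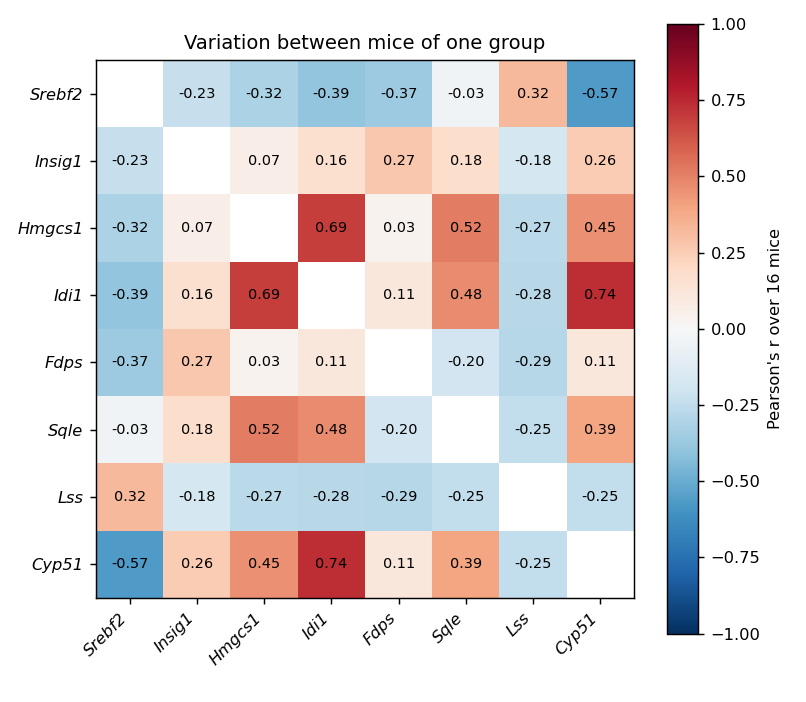
Pearson's r between each pair of the 8 genes over 16 mice (rows and columns are genes, colour and printed value give r), after the group mean was subtracted from log2(FPKM + 0.1). The highest values are those of Idi1 with Cyp51 (0.74) and of Hmgcs1 with Idi1 (0.69), and the lowest that of Srebf2 with Cyp51 (-0.57).

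The mean of the 8 group-centred genes, each divided by its standard deviation over the 16 mice, was followed most closely outside the pathway by Tdp2 (r = 0.874), Naf1 (0.854), 2810402E24Rik (0.854), Mlh3 (0.852), Zfp386 (0.852) and Spast (0.848). These were picked as the highest of all tested genes outside the 8, so high values are partly a product of the picking. All values share the library and the FPKM scaling of each mouse and are a description. Of the core genes not among the 8, Insig2 had r = 0.684 (rank 353 among the tested genes outside the 8) and Fdft1 0.294, while Scap had -0.197 and Srebf1 -0.421. Among the 8 genes themselves, which enter the mean, r ran from 0.748 for Idi1 to -0.170 for Srebf2.

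The other enzymes of sterol synthesis gave 1 call. Of 15 listed genes 14 were tested. None passed with exercise in VV or in MM, where the medians were -0.15 in each. Averaged over genotypes 1 of 14 fell (3.14% of all tested genes were called), 11 were below 0 (70.5% of all tested genes) and the median was -0.10, beside -0.06 over all. This gene was Acat2, the cytosolic acetoacetyl-CoA thiolase that starts the pathway. It had 1.496, 1.93, 1.83 and 1.96 FPKM in exercised VV mice, against 2.91, 2.08, 2.91 and 2.43 FPKM in sedentary VV mice. Exercised MM mice had 1.72, 2.61, 3.36 and 2.03 FPKM, against 3.68, 3.37, 3.04 and 3.17 FPKM in sedentary MM mice. The VV groups did not overlap (as for 4.91% of all tested genes) and the MM groups did, through the mouse titled 2246-4. The averaged log2 fold change was -0.48 (standard error 0.13, adjusted p = 0.0442 from limma). The call was lost in 18 of 24 alternatives (adjusted p from 0.0102 to 0.154 over all of them), among them the omission of any single mouse other than the exercised MM mouse 2246-4 and the sedentary VV mouse 2074-5.
Fdft1, the squalene synthase gene, averaged 31.4 FPKM over all mice and had a log2 fold change of -0.12 averaged over genotypes. The averaged values of Msmo1 and Nsdhl, which act on the methyl groups of lanosterol derivatives, were -0.48 and -0.29 (adjusted p = 0.0969 and 0.102). Mvd, the decarboxylase that makes isopentenyl diphosphate, had 0.59 (adjusted p = 0.191).

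No gene of SREBP processing and sterol sensing passed in any of the 7 comparisons, with 12 of 12 tested. The medians with exercise were -0.09 in VV and 0.01 in MM. Averaged over genotypes Scap, the escort of the SREBP proteins, had -0.01 and Insig2, the second anchor, -0.12. Srebf1, which encodes SREBP1, had -0.28 (adjusted p = 0.260), Rnf139, an endoplasmic reticulum ubiquitin ligase, -0.24, Erlin2, a partner of the INSIG complex, -0.31 (adjusted p = 0.0979) and Tmem97, a sterol-responsive membrane protein, 0.15. Insig2 averaged 31.6 FPKM over all mice, against 8.07 FPKM for Insig1, and was the higher of the pair in each group.

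In sterol uptake and transport Npc1 was higher in exercised than in sedentary mice. As for every exercise effect here, exercise was largely confounded with the number before the dash in the mouse titles. Npc1, the lysosomal exporter of cholesterol, had 39.7, 47.2, 37.8 and 39.9 FPKM in exercised VV mice, against 25.6, 31.8, 25.5 and 32.9 FPKM in sedentary VV mice. In exercised MM mice it was at 40.7, 33.3, 53.8 and 39.3 FPKM, against 24.8, 29.8, 28.4 and 21.3 FPKM in sedentary MM mice. The groups did not overlap in either genotype, a separation found in 4.91% of all tested genes in VV and 6.74% in MM. The log2 fold change was 0.51 in VV (adjusted p = 0.193) and 0.67 in MM (adjusted p = 0.0230), and 0.59 averaged over genotypes (standard error 0.10, adjusted p = 0.00235 from limma). Its exercise effects differed by -0.16 (adjusted p = 0.9997). The summed level of 6 macrophage markers had medians of 11.4 FPKM in exercised VV, 14.9 FPKM in sedentary VV, 22.8 FPKM in exercised MM and 11.1 FPKM in sedentary MM mice (ranges 8.10 to 26.4, 6.81 to 21.7, 10.8 to 29.6 and 8.95 to 12.4 FPKM). None of the markers was at 0 in all mice. With exercise in MM 4 of the 4 tested were above 0 (37.5% of all tested genes), with a median log2 fold change of 0.86. At an unadjusted p under 0.05 by limma were 2 of them (10.7% of all tested genes), and 0 passed. In VV 2 of 4 were above 0 (26.3% of all tested genes), with a median of -0.06. The part of these markers in the Npc1 values was not tested.
The averaged call of Npc1 was kept in all 25 alternatives (adjusted p from 0.00119 to 0.0121). That in MM was lost in 6 of 26 (adjusted p from 0.0129 to 0.0818 over all), namely when only the MM groups were fitted, with the number before the dash in the mouse titles as a random block and without the sedentary MM mice 2032-3 or 2127-3 or the exercised MM mice 2161-4 or 2246-4. Of the 10 tested genes of this list 1 was called in MM (1.23% of all tested genes), 0 in VV (0.276%) and 1 averaged over genotypes (3.14%). The averaged median was 0.01, beside -0.06 over all tested genes. Scarb1, an HDL receptor, had an averaged log2 fold change of -0.31 and the endocytic receptor gene Lrp1 one of 0.27.

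Genes of LXR signalling, efflux and esterification gave no call in any comparison, with 7 of 10 tested and a median of -0.13 averaged over genotypes. Their largest averaged values were -0.19 for Lpcat3, a phospholipid acyltransferase, -0.15 for the receptor gene Nr1h2, 0.15 for Apoe and -0.14 for Cyp27a1, which makes 27-hydroxycholesterol. The branch to isoprenoids, dolichol and ubiquinone also gave none, with 12 of 12 tested, 10 of them below 0, as were 70.5% of all tested genes, and a median of -0.11 beside -0.06. Its largest averaged values were -0.15 for Pggt1b, a subunit of a protein prenyltransferase, -0.14 for Dolk, dolichol kinase, -0.13 for Pdss1, which builds the ubiquinone side chain, and -0.13 for Nus1, a subunit of the dolichol-forming prenyltransferase.

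Genes of fatty acid synthesis, the branch mainly under SREBP1, had medians below 0 after exercise in both genotypes. Of 13 tested genes 12 were below 0 in VV and 10 in MM, where 73.6% and 62.5% of all tested genes were below 0, with 0 calls in each. The medians were -0.35 and -0.30, beside -0.08 and -0.05 over all. Averaged over genotypes 1 of 13 fell, where 3.14% of all tested genes were called. It was Acss2, which makes acetyl-CoA from acetate. It had 13.7, 14.1, 13.5 and 15.6 FPKM in exercised VV mice, against 20.4, 17.6, 18.6 and 15.96 FPKM in sedentary VV mice. Exercised MM mice had 13.0, 14.7, 16.7 and 16.1 FPKM, against 22.2, 19.2, 17.1 and 16.5 FPKM in sedentary MM mice. The groups were separated in VV (as for 4.91% of all tested genes) and overlapped in MM. The averaged log2 fold change was -0.32 (standard error 0.08, adjusted p = 0.0255 from limma). The call was lost in 8 of 25 alternatives (adjusted p from 0.00974 to 0.0999 over all), with the title number as a random block and without the sedentary MM mouse 2074-1, the exercised MM mice 2161-4 or 2161-9, the sedentary VV mice 2074-2 or 2126-4 or the exercised VV mice 2161-5 or 2161-7.
Elovl6, a fatty acid elongase, had -0.93, Fasn, fatty acid synthase, -0.76, Scd1, stearoyl-CoA desaturase, -0.65 and Acaca, acetyl-CoA carboxylase, -0.49 averaged over genotypes (adjusted p = 0.170, 0.197, 0.233 and 0.131). These lipogenic genes are also high in fat cells. The summed level of 8 adipocyte markers had medians of 617 FPKM in exercised VV, 659 FPKM in sedentary VV, 771 FPKM in exercised MM and 838 FPKM in sedentary MM mice, with ranges of 539 to 687, 530 to 881, 561 to 1382 and 674 to 899 FPKM. No marker was at 0 in all mice and 0 of the 7 tested passed. Their log2 fold changes with exercise were below 0 for 7 of 7 in VV (median -0.31), for 3 of 7 in MM (median 0.03) and for 7 of 7 averaged over genotypes (median -0.11). Of the 3 tested brown adipocyte markers 2 had averaged values of -0.93 and -0.97 (adjusted p = 0.359 and 0.4996), and the other, Cox8b, which muscle also expresses and which averaged 757 FPKM, had 0.02. The part of these fat cell markers in the values of the lipogenic genes was not tested.

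**Figure D4:**
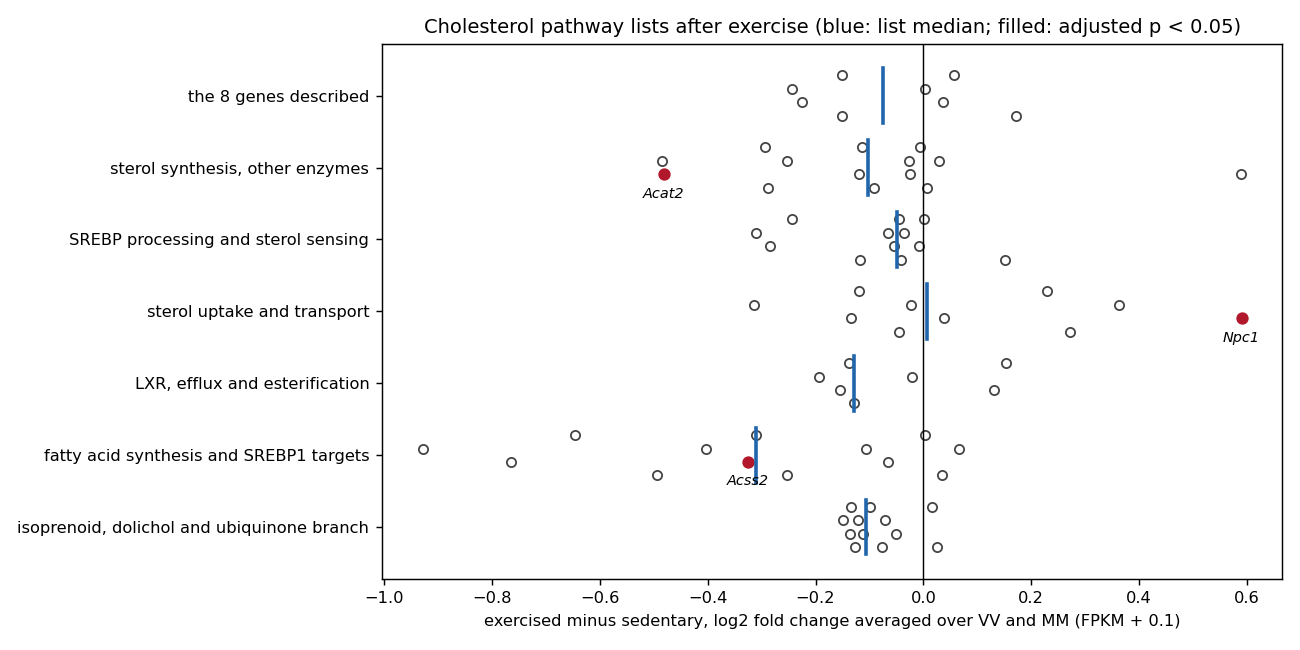
Log2 fold change of exercise averaged over VV and MM on the log2(FPKM + 0.1) scale (horizontal axis) for each tested gene of the 8 described and of the 6 other lists (rows), with blue bars at list medians and filled points for genes at an adjusted p under 0.05. Only Acat2 (-0.48), Npc1 (0.59) and Acss2 (-0.32) are filled, the 8 genes lie between -0.24 and 0.17, and the median of the fatty acid list (-0.31) is farthest from 0.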

How the data were processed

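RNA of whole quadriceps from 16 mice, 4 per group, was sequenced from a stranded poly(A) library. The authors deposited 1 table of FPKM, a level per transcript length and library size. In the submitters' processing notes stand the build mm10 and Cuffdiff 2.2.1, SAMtools, StringTie, TopHat and FastQC, without their order. FPKM keeps no read counts, so depth is known only in relative terms and no counting interval is given. Groups came from the genotype and treatment labels. Genes averaging 1 FPKM or more were put on the log2(FPKM + 0.1) scale, which understates changes of low genes, and fitted with 4 group means in limma 3.58.1 (R 4.3.3, eBayes with trend and robust, two-sided, Benjamini-Hochberg over 10519 genes, threshold 0.05), a step tested on simulated data. Correlations and figures were made with Python 3.11.15 and matplotlib 3.10.9. The 8 genes, the other lists, the markers and the tests were chosen with earlier results of these data known. Genes named from the other lists were up to 4 per list with the largest averaged exercise effect, every gene past the threshold in any comparison, and Scap, Insig2, Srebf1 and Fdft1, and some genes that this rule covers are counted in their lists but not reported here. Outside the pathway, the 6 genes most like the mean of the 8 were named. In 271 tested rows the table joins several gene names, none of them among the 8. Promoters, positions and gene identities are those of RefSeq for GRCm38.p6, and overlapping genes those of the GENCODE annotation of the same assembly. Alternatives changed the pseudocount, the filter, the scaling, the eBayes step, sample weights, the mice in the fit and a block on the number before the dash in the mouse titles. No source used here gives the meaning of that number.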

Additional observations from a re-analysis of the deposited data

Results flagged for a closer look

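Within the 4 mice of a group, 7 of 148 groups (37 genes of the pathway in 4 groups each) held 1 mouse far from the other 3 by Dixon's criterion, where chance alone flags about 1 in 20 groups. Hmgcs1 was the only one of the 8 cholesterol genes among them, with 17.0 FPKM in the sedentary MM mouse 2032-3, against 13.4 to 13.5 FPKM in the other sedentary MM mice. The same mouse had 5.47 FPKM of Pdss1 (others 3.43 to 3.58 FPKM). The exercised VV mouse 2161-5 had 55.1 FPKM of Apoe (others 23.8 to 27.2), 13.6 FPKM of Lrp1 (others 6.91 to 7.76) and 8.29 FPKM of Scarb1 (others 6.14 to 6.35). The exercised VV mouse 2296-2 had 39.9 FPKM of Cyp27a1 (others 47.6 to 48.2), and the exercised MM mouse 2246-4 had 38.8 FPKM of Fdft1 (others 28.6 to 29.7).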

How the results depend on the processing

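No cholesterol gene passed the test in any of 1397 values under 26 alternatives (smallest adjusted p = 0.178 by limma), and 88 values, in 26 of 56 gene results, turned sign, with a main size of at most 0.19 among them. The cause of these turns was not tested. For exercise in VV, median-ratio scaling gave Lss 0.015 and Cyp51 0.0036, and the random block on the title number Cyp51 0.023. Leaving out 1 mouse at a time gave Cyp51 -0.16 to 0.023, Lss -0.18 to 0.068, Sqle -0.13 to 0.25, Insig1 -0.084 to 0.34 and Fdps -0.059 to 0.042. For exercise in MM, sample quality weights gave Fdps -0.043, and leaving out mice Fdps -0.043 to 0.043 and Insig1 -0.17 to 0.18. For the difference of the effects, quantile normalization gave Srebf2 0.0199 and the block Fdps -0.010, and leaving out mice Hmgcs1 -0.015 to 0.16, Idi1 -0.062 to 0.17, Srebf2 -0.24 to 0.057, Fdps -0.061 to 0.046, Insig1 -0.046 to 0.38 and Sqle -0.38 to 0.0002. For VV against MM in exercised mice, median-ratio scaling gave Hmgcs1 0.0009, Lss 0.051 and Cyp51 0.0045, quantile normalization Lss 0.073 and Cyp51 0.046, the weights Lss 0.073 and the block Lss 0.010. Leaving out mice gave Insig1 -0.22 to 0.21, Fdps -0.016 to 0.069, Lss -0.14 to 0.11, Cyp51 -0.18 to 0.0300, Hmgcs1 -0.14 to 0.0202 and Srebf2 -0.0061 to 0.29. For VV against MM in sedentary mice, a pseudocount of 0.01 gave Sqle -0.0012 and the weights Fdps -0.013, and leaving out mice Fdps -0.012 to 0.095 and Sqle -0.16 to 0.22. For exercise averaged over genotypes, the weights gave Fdps -0.014 and the block Lss -0.013, and leaving out mice Fdps -0.029 to 0.024, Insig1 -0.061 to 0.17 and Lss -0.027 to 0.0998. For VV against MM averaged over exercise, the weights gave Insig1 0.043, and leaving out mice Sqle -0.16 to 0.033 and Insig1 -0.20 to 0.017. The mean of Sqle in exercised VV mice was 1.78 FPKM after median-ratio scaling, beside 1.70 FPKM, and the other 31 group means of the 8 genes stayed within 1 SD. The number of genes called for exercise in MM was 235 with sample quality weights, 72 with the block (consensus correlation 0.231) and 69 to 135 with 1 mouse left out. For exercise in VV it was 53 with median-ratio scaling, 48 with quantile normalization, 5 with the groups compared alone and 17 to 43 with 1 mouse left out, and for exercise averaged over genotypes 573 with the weights and 153 with the block. In sedentary mice VV and MM differed in 0 genes with a pseudocount of 1, no filter, a mean of at least 5 FPKM, median-ratio scaling, quantile normalization, plain eBayes or the groups compared alone, and in 0 to 2 with 1 mouse left out. Averaged over exercise the number was 0 with this higher filter and 1 to 2 with 1 mouse left out, and in exercised mice and for the difference 0 to 1. A mean of at least 5 FPKM leaves Srebf2, Idi1, Sqle, Lss and Cyp51 untested. The block rests on the number before the dash in the mouse titles, 3 of which (2074, 2161 and 2296) occur in more than 1 group. Of these, 2074 holds sedentary mice only and 2161 exercised mice only, and 2296 alone holds both, all of them VV. Exercise is thus largely confounded with this number, and the block cannot tell the 2 apart. The labels give no other number by which mice could be paired. With 4 mice a group the standard errors of the 8 genes reached 0.24 log2 units for comparisons of 2 groups. For the difference of the exercise effects they reached 0.34 log2 units (Insig1 in both cases), which limits how small a change could be seen.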
